A study of Mus musculus with 56 samples.

Results

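Kidneys taken early in the meal were compared at opposite light phases: 4 mice on daytime-restricted feeding (DRF) at zeitgeber time (ZT) 4 and 4 mice on nighttime-restricted feeding (NRF) at ZT16. These 8 libraries, chosen by their group labels alone, came from a series of 56 kidney RNA-seq libraries with 4 mice in each of 14 groups. All mice were female C57BL/6J, 9 weeks old, on a 12 h light and 12 h dark cycle, and had been on their feeding schedule for 7 days. ZT0 is lights on, so that DRF ZT4 lay in the light and NRF ZT16 in the dark, while food was present in both. The opposite corners of the same design, NRF ZT4 (light, early in the fast) and DRF ZT16 (dark, early in the fast), with 4 mice each, were used as the reference for what was shared by the meals. Each value came from 1 whole-tissue library of 1 mouse, so that fewer cells of a type and less RNA per cell cannot be told apart.

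As background, the circadian clock of a kidney cell is a feedback loop in which CLOCK, NPAS2 and BMAL1 (Arntl) activate the Per, Cry and Nr1d genes through E-box sequences. PER and CRY proteins then repress this activation, while REV-ERB (Nr1d1, Nr1d2) and ROR proteins set the level of Arntl, Npas2, Cry1 and Nfil3 in opposite directions. Light reaches the kidney clock through the brain, glucocorticoids and body temperature. Food reaches it through insulin, nutrients and heat, which also act on lipid synthesis through SREBP and on fasting genes through FOXO and PPARA. The comparison of DRF ZT4 with NRF ZT16 holds the time since the meal began roughly constant and lets the light phase differ. The regimen differs with it, so that light phase and regimen cannot be told apart from these 8 libraries alone.

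Among the 19 clock genes examined, 16 had a promoter in the RefSeq table of the GRCm38.p6 build, and 5 of these held the E-box CACGTG, a palindrome that reads the same on both strands, within the 250 bases upstream of a start site. The motif was in such a window for 9.61% of the 10817 tested genes with a promoter and for 10.8% of the 1879 called genes with one. Stretches around it are shown for 3 clock genes that changed in different directions between the early meals (capitals mark CACGTG), since they show the same element beside lower and higher transcripts. The first is on the minus strand at chr10:85185079-85185144, the second on the plus strand at chr15:81802516-81802581, and the third, with 3 copies, on the minus strand at chr3:95882237-95882374.
Cry1: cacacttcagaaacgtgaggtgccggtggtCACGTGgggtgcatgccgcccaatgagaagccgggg
Tef: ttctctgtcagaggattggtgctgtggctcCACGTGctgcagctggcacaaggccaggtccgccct
Ciart: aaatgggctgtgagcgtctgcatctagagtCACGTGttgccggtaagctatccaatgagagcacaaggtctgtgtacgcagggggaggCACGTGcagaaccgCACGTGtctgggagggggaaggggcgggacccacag
A match is a description of these windows and does not show that a factor was bound.

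The 8 libraries held 23.3 to 25.4 M recovered reads and differed little in depth, with 23.3 to 25.4 M in DRF ZT4 and 23.9 to 24.6 M in NRF ZT16 (M, mega-reads). Levels are given as TPM, read number per transcript length scaled to the same total in every library, rebuilt from the deposited values, and differences as log2(TPM + 1) with their standard error (SE). Kidney markers were present throughout: summed proximal tubule markers were 4689 to 5734 TPM in DRF ZT4 and 3710 to 5513 TPM in NRF ZT16. The libraries were not alike in what other tissue they held. Urothelial markers summed to 209 TPM in DRF ZT4 replicate 4 and 110 TPM in NRF ZT16 replicate 2, against 4.34 to 23.1 TPM in the other 6 libraries. Adipose markers summed to 744 and 442 TPM in NRF ZT16 replicates 1 and 2, against 28.3 to 82.8 TPM in the others. The early-fast groups varied as well. Urothelial markers summed to 2.75 to 518 TPM in NRF ZT4 and 10.4 to 157 TPM in DRF ZT16. Adipose markers summed to 24.9 to 317 TPM in NRF ZT4 and 34.3 to 69.5 TPM in DRF ZT16. The part of these early-fast differences in the results was not tested. The inner medullary urea transporter Slc14a2 ran from 0.207 TPM in NRF ZT16 replicate 1 to 251 TPM in replicate 2. Summed immune markers did not overlap between the groups, at 157 to 194 TPM in DRF ZT4 and 208 to 342 TPM in NRF ZT16. Ptprc (-0.31), Adgre1 (-0.45) and Lyz2 (-0.76) were called lower in DRF ZT4. Cd68 (-0.32), Csf1r (-0.35), C1qa (-0.46) and Cd79a (0.18) were not called. Cd3e, at 0.848 and 0.865 TPM, was not tested. Pancreas and skeletal muscle markers stayed below 1 TPM. On the first principal component of the 16 libraries of all 4 groups, which carried 32.8% of the variance, DRF ZT4 replicate 4 stood at -31 and NRF ZT16 replicate 2 at -37, while their group mates were at -1.64 or above. On the same component NRF ZT4 ran from -30.4 to 16.8 and DRF ZT16 from -22.5 to 8.72. That component followed no group, whereas the second (20%) placed NRF ZT4 at -28.1 to -21.7, DRF ZT4 at -2.3 to 2.85, DRF ZT16 at 9.88 to 13.9 and NRF ZT16 at 9.16 to 16.9.

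Of 13540 genes tested, 2335 (17.2%) differed between DRF ZT4 and NRF ZT16 at an adjusted p under 0.05 (limma, Benjamini-Hochberg over all tested genes). Of these, 1301 (9.61% of tested genes) were higher in DRF ZT4 and 1034 (7.64%) were lower, a split of 55.7% to the higher side. With voom weights on recovered reads, a choice added after the data were seen, 71.6% of 2662 calls were higher. Most differences were small: 322 called genes reached 1.5-fold and 84 reached 2-fold, and the 95% interval of the difference lay within 1.5-fold for 81.6% of genes. The 4 values of each group did not overlap for 1984 genes (14.7%), including 1472 of the called genes. When the same fit set early meal against early fast at each ZT, 4151 genes differed between DRF ZT4 and NRF ZT4 and 1121 between NRF ZT16 and DRF ZT16. The spread used here was pooled over all 14 groups. With the 8 libraries alone, 624 genes were called. Leaving out 1 library gave 1482 or 1536 calls (without DRF ZT4 replicate 2 or 3), 1522 or 1519 (without NRF ZT16 replicate 2 or 3), 1744 or 1992 (without DRF ZT4 replicate 1 or NRF ZT16 replicate 4), and 3268 or 3198 (without DRF ZT4 replicate 4 or NRF ZT16 replicate 1). In the last pair 42.6% and 42.8% of the calls were higher, so the balance of higher and lower genes rested on single libraries.

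The opposite light-dark pair, NRF ZT4 against DRF ZT16, shares no library with the early-meal pair and called 4503 genes (33.3%). Of the 2335 early-meal calls, 1006 (43.1%) were also called there in the same light-dark direction, which is 22.3% of that pair's calls, and 131 were called in the opposite direction. The sign was the same for 1760 early-meal calls (75.4%), against 59% of all tested genes. The light effect, the mean of both pairs, was called for 4518 genes (33.4%), 3075 (22.7%) of them higher and 1443 (10.7%) lower at ZT4. The pairs differed from each other for 2160 genes (16%), among them 624 of the early-meal calls. This difference between the pairs equals the difference of DRF from NRF summed over both times, and both readings cannot be told apart.

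**Figure D1:**
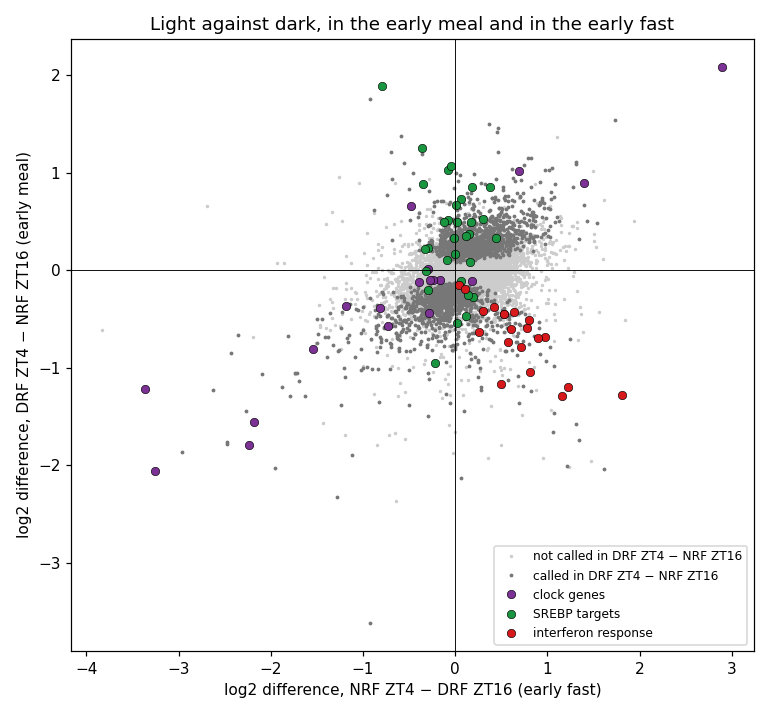
Each point is 1 of 13540 tested genes; the vertical axis is the log2 difference DRF ZT4 minus NRF ZT16 and the horizontal axis NRF ZT4 minus DRF ZT16, with clock genes, SREBP targets and interferon response genes in colour. Clock genes run from lower left to upper right, SREBP targets lie mostly above 0 on the vertical axis near 0 on the horizontal one, and interferon response genes lie below and to the right of 0.

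Of 19 clock genes tested, 11 differed between the early meals (17.2% of all genes did), 4 higher and 7 lower in DRF ZT4. Of these 11, 9 were also called in the same direction between NRF ZT4 and DRF ZT16 (43.1% of all early-meal calls were). The median absolute difference of the 19 genes was 0.57 on the log2 scale, against 0.13 over all tested genes. The meal effect, the mean of both early meals minus the mean of both early fasts, was called for 12 of the 19 (23% of all genes). For any gene, a change in the timing of a rhythm between the regimens also enters this contrast. It cannot be told apart there from a response to the meal.

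Nr1d1, Cry1 and Nfil3 were among the clock genes with the largest differences. Nr1d1 (chromosome 11, 98767932 to 98775333, GRCm38), which encodes the repressor REV-ERB alpha, was at 86.2, 96.4, 131 and 111 TPM in the 4 DRF ZT4 mice. In NRF ZT16 it was at 30.3, 31.8, 16 and 20.9 TPM. Every DRF ZT4 mouse was above every NRF ZT16 mouse, with a log2 difference of 2.09 (SE 0.25, adjusted p = 1e-07). Cry1 (chromosome 10, 85131700 to 85185064), a repressor whose E-box stretch is printed above, was at 10.6, 6.36, 4.86 and 11.4 TPM in DRF ZT4 and 31.4, 41.7, 38.2 and 33.1 TPM in NRF ZT16 (-2.06, SE 0.21, adjusted p = 3.5e-09). Nfil3, a repressor of D-box genes, averaged 15.7 ± 2.67 TPM (SD, n = 4) in DRF ZT4 and 48.4 ± 11 TPM in NRF ZT16 (-1.55, SE 0.19, adjusted p = 1.4e-07). Npas2, a partner of BMAL1, was the activator that differed: 3.63 ± 0.859 TPM in DRF ZT4 and 1.5 ± 0.445 TPM in NRF ZT16 (0.89, SE 0.18, adjusted p = 0.00043). Both of its early-meal levels were below the early fasts, at 12.8 ± 2.69 TPM in NRF ZT4 and 4.22 ± 0.806 TPM in DRF ZT16. Rora was lower in DRF ZT4 (-0.44, SE 0.10, adjusted p = 0.002), a call lost with the 8 libraries alone (limma, adjusted p = 0.13). Nr1d2 (-0.11, 95% interval -0.41 to 0.19) and Clock (-0.10, -0.32 to 0.12) did not pass the test.

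Among the repressors, Per2 (chromosome 1, 91415982 to 91459324) combined a light-dark difference with a meal effect. It was at 39.5, 33.2, 24.9 and 37.3 TPM in DRF ZT4 and 75.9, 82.2, 76.9 and 79.2 TPM in NRF ZT16 (-1.22, SE 0.18, adjusted p = 5e-06). In the early fast it was at 4.07 ± 0.963 TPM at ZT4 and 50.8 ± 6.43 TPM at ZT16, so that the light-dark difference was smaller in the early meal (difference of differences 2.15, SE 0.25, adjusted p = 4.3e-07). The same test was passed by Cry1 (1.20, SE 0.29, adjusted p = 0.0042) and Ciart (1.13, SE 0.28, adjusted p = 0.0041), a repressor of CLOCK and BMAL1 activity. Ciart was higher in DRF ZT4 (9.27 ± 0.553 against 5.57 ± 0.992 TPM; 0.65, SE 0.20, adjusted p = 0.017), a call lost without NRF ZT16 replicate 3 (adjusted p = 0.068). Cry2 was lower (-0.57, SE 0.13, adjusted p = 0.0018). Its call was lost with the 8 libraries alone and without the 2 adipose-rich libraries (limma, adjusted p = 0.0744 and 0.0612). Per3 was at 23.3 ± 2.45 and 30.3 ± 2.82 TPM in the early meals, a difference that did not pass (-0.37, 95% interval -0.79 to 0.06), and had a meal effect of 1.04 (SE 0.15, adjusted p = 4.8e-07). Per1 averaged 12.7 and 22.9 TPM and stood at the threshold (-0.81, SE 0.29, adjusted p = 0.05, not called). Bhlhe40 (0.01) and Bhlhe41 (-0.10), which encode DEC repressors, were not called.

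Arntl had a meal effect, with no detected light-dark difference between the early meals. It was at 5.97, 4.87, 6.09 and 7.64 TPM in DRF ZT4 and 4.18, 8.14, 8.33 and 6.47 TPM in NRF ZT16, and the ranges overlapped (-0.10, 95% interval -0.46 to 0.26, adjusted p = 0.75). The early fasts were higher, at 10.5 ± 2.97 and 12.7 ± 1.36 TPM, a meal effect of -0.76 (SE 0.13, adjusted p = 1.1e-05). Dbp, a D-box activator and direct clock output, was at 82.6, 92.6, 76.3 and 74.7 TPM in DRF ZT4. In NRF ZT16 it was at 71 TPM in replicate 1 and at 32.7, 27.2 and 38.6 TPM in the others. Its difference of 1.02 (SE 0.32, adjusted p = 0.024) was smaller than its meal effect of 1.44 (SE 0.23, adjusted p = 4.3e-06), and its call was lost without any of DRF ZT4 replicates 1 or 2 or NRF ZT16 replicates 2 or 3 (adjusted p = 0.05011 to 0.109). With the 8 libraries alone the Dbp call was lost too (limma, adjusted p = 0.057). Tef was lower in DRF ZT4 (131 ± 4.64 against 171 ± 8.19 TPM; -0.39, SE 0.12, adjusted p = 0.018; adjusted p = 0.0565 without DRF ZT4 replicate 3) and Hlf did not differ detectably (-0.12, adjusted p = 0.49). The Tef call was also lost with voom and without the 2 adipose-rich libraries (limma, adjusted p = 0.0587 and 0.11). Wee1, a clock-controlled inhibitor of mitotic entry, was also lower in every DRF ZT4 mouse (23.1 ± 4.51 against 38.5 ± 1.3 TPM; -0.73, SE 0.12, adjusted p = 3.3e-05).

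**Figure D2:**
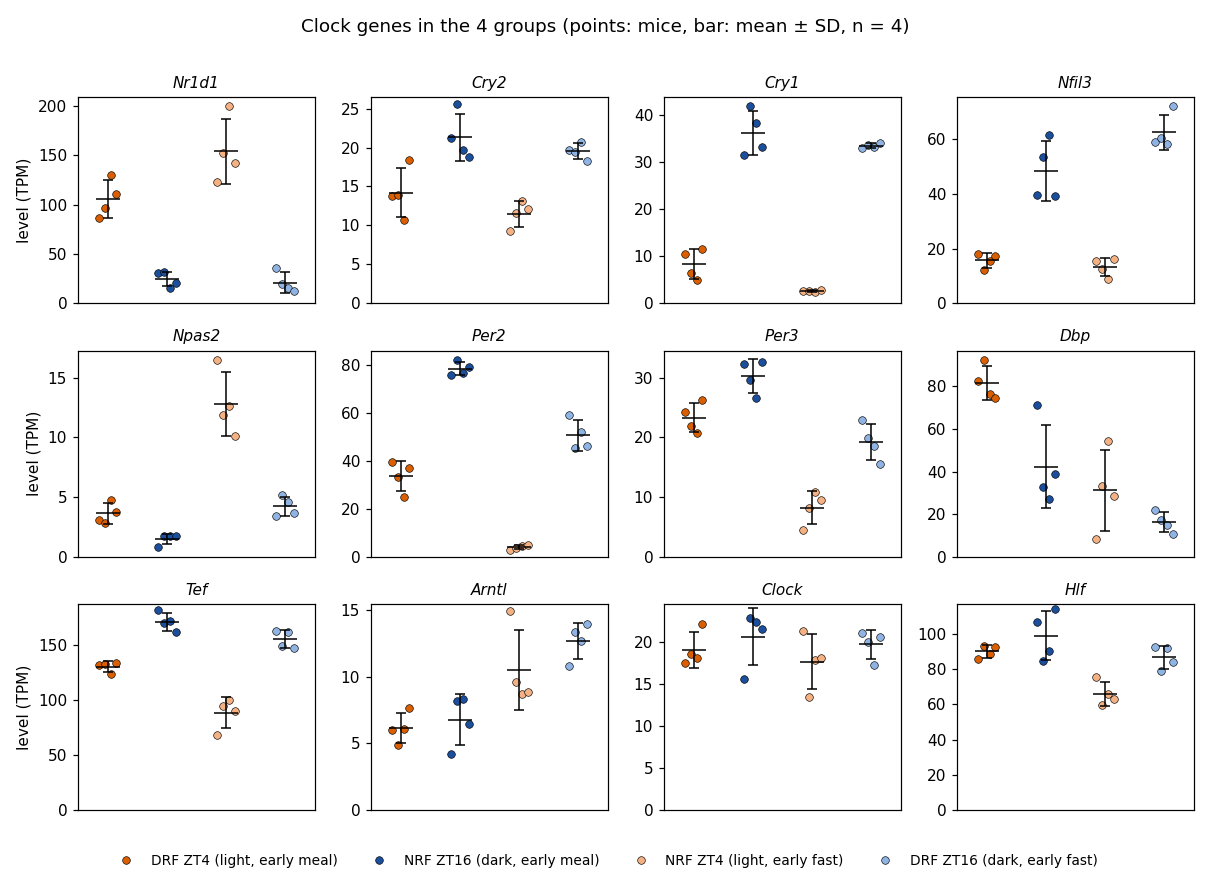
Levels in TPM of 12 clock genes in the 4 groups, 1 point per mouse with the mean and SD of 4. Nr1d1, Cry1 and Nfil3 separate the light from the dark groups, Arntl is lower in both early meals than in the early fasts, and Per2 differs along both.

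Among genes with a mean of at least 10 TPM over all 56 libraries, whose groups did not overlap, the largest difference after Nr1d1 on the DRF ZT4 side was that of Apoc3 (chromosome 9, 46232933 to 46235636). An apolipoprotein that inhibits lipoprotein lipase, it was at 107, 123, 150 and 97.4 TPM in DRF ZT4 and 34.7, 38, 30 and 33.9 TPM in NRF ZT16. The difference was 1.76 (SE 0.38, adjusted p = 0.0011), while between the early fasts it was -0.92 (SE 0.38, adjusted p = 0.056). Fabp7, a fatty acid binding protein, followed the light phase in both pairs: 23.4 ± 4.23 against 7.48 ± 2.28 TPM in the early meals (1.55, SE 0.17, adjusted p = 3e-08) and 29.6 ± 1.14 against 8.38 ± 1.98 TPM in the early fasts. Mt2, a metallothionein, was at 462 ± 110 against 173 ± 48.9 TPM (1.42, SE 0.26, adjusted p = 0.00015). Gsta1 (1.5) and Gm3776 (1.46), glutathione S-transferases, and Gm38481 (1.38) were also higher, but near-identical neighbours of the Gsta family could share reads and their separate values are uncertain. Cyp4a14, a fatty acid omega-hydroxylase of a family with close copies, was at 1916, 2439, 2382 and 1968 TPM in DRF ZT4 and 1064, 764, 949 and 990 TPM in NRF ZT16 (1.21, SE 0.16, adjusted p = 9.8e-07). Ethe1, a mitochondrial sulfide-oxidizing dioxygenase, was at 204 ± 31.7 against 90.7 ± 11.7 TPM (1.15, SE 0.14, adjusted p = 5.5e-08), with D630023F18Rik (1.15) and the elongation factor Ell3 (1.09) completing the set with Msmo1 below.

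On the NRF ZT16 side the largest differences included the clock genes above. Cyp2a5 (chromosome 7, 26835305 to 26843548), a P450 that oxidizes coumarin and nicotine, was at 58.8, 65.8, 75.7 and 71.6 TPM in DRF ZT4 and 373, 314, 297 and 397 TPM in NRF ZT16 (-2.33, SE 0.36, adjusted p = 1.4e-05). NRF ZT4 lay between them at 127 ± 60.9 TPM and DRF ZT16 at 291 ± 26.6 TPM. Fkbp5, a chaperone of the glucocorticoid receptor and one of its induced genes, was at 9.57 ± 1.09 TPM in DRF ZT4 and 36.8 ± 11.9 TPM in NRF ZT16 (-1.78, SE 0.29, adjusted p = 1.9e-05), beside 8.36 ± 1.1 TPM in NRF ZT4 and 51.2 ± 7.98 TPM in DRF ZT16. Zbtb16, another glucocorticoid-induced gene, was at 1.7 ± 0.56 and 10.2 ± 6.95 TPM (-1.87, SE 0.46, adjusted p = 0.0041). Cyp26b1, which degrades retinoic acid, was at 4.11 ± 2.26 and 18.3 ± 7.89 TPM (-1.90, SE 0.57, adjusted p = 0.017), a call lost without DRF ZT4 replicate 1 or NRF ZT16 replicate 2. Rnf24, a RING finger protein, ranged from 54.4 to 237 TPM in NRF ZT16 and from 17 to 29.7 TPM in DRF ZT4 (-2.13, SE 0.58, adjusted p = 0.0085), a call lost without NRF ZT16 replicate 3. Mup22, of the urinary protein family with near-identical copies, was at 0 in 3 DRF ZT4 mice and at 0.437 TPM in replicate 1, against 27.7, 31, 9.02 and 2.56 TPM in NRF ZT16. Its value is uncertain and its call (adjusted p = 0.043) was lost without any single library except NRF ZT16 replicate 4.

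SREBP targets, the genes for cholesterol and fatty acid synthesis and uptake, were the list most often higher in DRF ZT4: 17 of 31 tested members were called higher (54.8%, against 9.61% of all genes) and 0 lower. The median difference was 0.35, beside -0.03 over all tested genes. The count ran from 14 to 18 when single libraries were left out. Msmo1 (chromosome 8, 64718139 to 64733792), a sterol C4-methyl oxidase, was at 73, 84.3, 67.3 and 78.5 TPM in DRF ZT4 and 31.4, 32.3, 26.1 and 34.5 TPM in NRF ZT16 (1.26, SE 0.13, adjusted p = 8.4e-09). The early fasts were at the NRF ZT16 level, with 26.6 ± 3.14 TPM in NRF ZT4 and 35.1 ± 9.34 TPM in DRF ZT16. Fdps, farnesyl diphosphate synthase, gave the same order, at 52.9, 56.2, 43.6 and 56.3 TPM in DRF ZT4 and 25.2, 24.3, 22.3 and 25.6 TPM in NRF ZT16 (1.07, SE 0.12, adjusted p = 1.6e-08), with 26.7 ± 4.34 and 27.3 ± 3.13 TPM in the early fasts. Chosen after their values were seen, Idi1 (106 ± 17.8 against 56.7 ± 2.31 TPM) and Nsdhl (182 ± 11.2 against 89 ± 8.39 TPM), further enzymes of the pathway, did not overlap either. The pairs differed from each other for 14 of the 31 members, against 16% of all genes.

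Chosen after their values were seen, Fasn (-0.47), Acaca (-0.54) and Acly (-0.25), the fatty acid synthesis enzymes, were not called. Fasn was at 218 and 213 TPM in the adipose-rich NRF ZT16 replicates 1 and 2 and at 38.8 to 129 TPM in the other 6 mice. Srebf1, which encodes the factor of the fatty acid branch, did not differ detectably between the early meals, at 56.9, 58.2, 60.6 and 68.4 TPM against 66.5, 59.5, 43.9 and 62.1 TPM (0.09, 95% interval -0.21 to 0.39). It was at 32.2 ± 4.21 and 28.8 ± 4.5 TPM in the early fasts, a meal effect of 0.95 (SE 0.11, adjusted p = 2.4e-09).

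All 20 tested members of the interferon response list had negative differences (-1.29 to -0.15), with a median of -0.62. Of these interferon-inducible genes, 6 were called lower in DRF ZT4 (30%, against 7.64% of all genes), and 14 had an unadjusted p under 0.05. Irf7, the master regulator of the response, was at 15.4, 12.6, 13.5 and 12.1 TPM in DRF ZT4. In NRF ZT16 it was at 76.6 TPM in replicate 1 and 30, 29 and 19.2 TPM in the others (-1.28, SE 0.29, adjusted p = 0.0015). Gbp6, Tgtp1 and Iigp1 are interferon-inducible but outside this list, and were named for their large differences. The guanylate-binding protein Gbp6 was at 13.8, 14.1, 12.3 and 8.8 TPM against 94.5, 35, 29.5 and 21.1 TPM (-1.58, SE 0.39, adjusted p = 0.0042). Tgtp1 (-1.75) and Iigp1 (-1.66), interferon-inducible GTPases, and Ifi27l2a (-1.29, called, but not without NRF ZT16 replicate 1 or 2 or DRF ZT4 replicate 2) had their highest value in the same NRF ZT16 mouse. With the 8 libraries alone the calls of Irf7, Gbp6, Tgtp1 and Iigp1 were lost (limma, adjusted p = 0.0743, 0.0593, 0.0551 and 0.0527). Without NRF ZT16 replicates 1 and 2 they were lost too (limma, adjusted p = 0.09, 0.141, 0.137 and 0.163). In the early fast the order was turned round: Irf7 was at 46.3 ± 12.7 TPM in NRF ZT4 and 12.1 ± 1.28 TPM in DRF ZT16. The pairs therefore differed from each other for 15 of the 20 members, against 16% of all genes (Irf7 -3.08, SE 0.40, adjusted p = 3e-06). The median light effect of the members was 0.01. The sum of the immune markers, though not every marker, was higher in NRF ZT16 as given above, and their part in the result was not tested. Without NRF ZT16 replicate 1 or replicate 2 the count of lower members was 3, and without replicates 1 and 2, the libraries richest in adipose markers, it was 0, with 6 members still differing between the pairs.

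**Figure D3:**
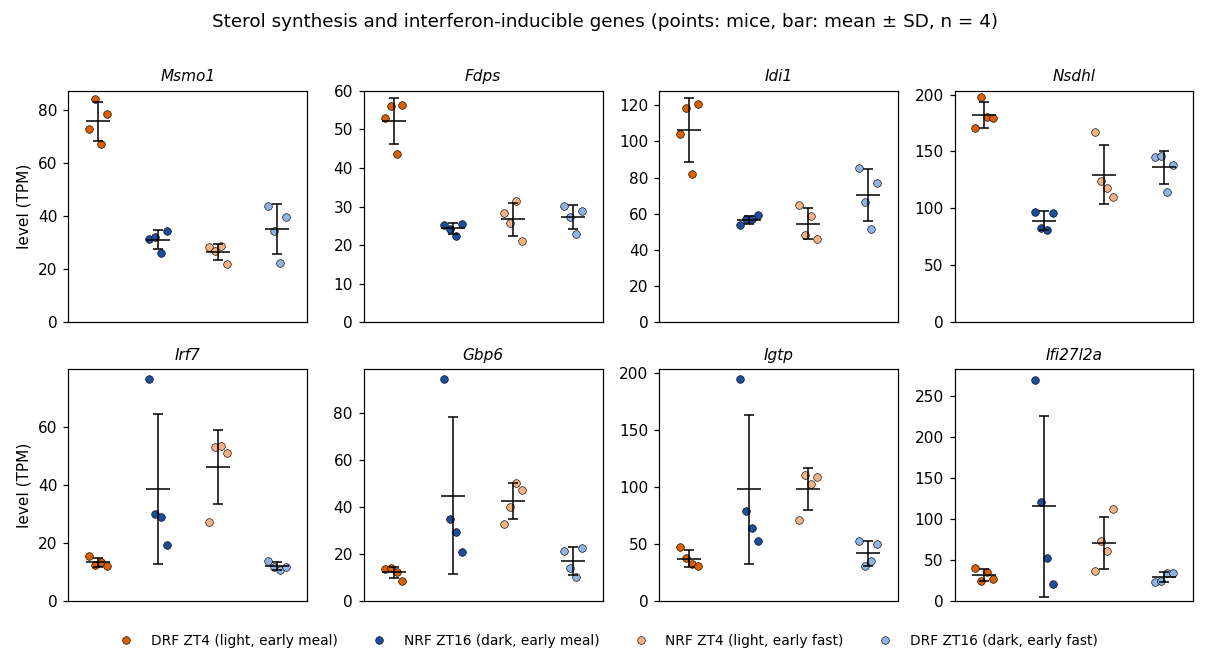
Levels in TPM of 4 sterol genes (upper row) and 4 interferon-inducible genes (lower row) in the 4 groups, 1 point per mouse with the mean and SD of 4. The sterol genes are highest in DRF ZT4 of the 4 groups shown, and the interferon-inducible genes are high in NRF ZT16 replicate 1 and in NRF ZT4.

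Of the sodium transport genes, 9 of 16 tested members were called lower (56.2%, against 7.64% of all genes) and 0 higher, with a median of -0.34. Of 3 thick ascending limb markers, which summed to 3842 to 5732 TPM in DRF ZT4 and 5160 to 9851 TPM in NRF ZT16, Umod was called lower (-0.69, adjusted p = 0.018), and Slc12a1 (-0.41), also a sodium transport member, and Cldn16 (-0.16) were not called. Their part in the result was not tested. Scnn1a (chromosome 6, 125320659 to 125344943), the alpha subunit of the epithelial sodium channel, was at 196, 202, 208 and 172 TPM in DRF ZT4 and 298, 277, 295 and 274 TPM in NRF ZT16 (-0.56, SE 0.08, adjusted p = 2.2e-06). NRF ZT4 was at 219 ± 24.6 TPM and DRF ZT16 at 295 ± 15.7 TPM. Its kinase regulator Sgk1 was at 115, 105 and 103 TPM in 3 DRF ZT4 mice and 247 TPM in replicate 4, and was not called (-0.68, SE 0.35, adjusted p = 0.18; adjusted p = 0.044 without that replicate). Single-library omissions moved the sodium list from 3 to 10 members called lower, with 3 without DRF ZT4 replicate 3 and 5 without DRF ZT4 replicate 1, NRF ZT16 replicate 4 or both adipose-rich libraries.

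Among organic anion transporters, Slc22a7, the transporter OAT2, was at 151, 164, 123 and 187 TPM in DRF ZT4 and 471, 420, 503 and 366 TPM in NRF ZT16 (-1.49, SE 0.31, adjusted p = 0.00063), whereas Slc22a28 was higher in DRF ZT4 (0.90, SE 0.27, adjusted p = 0.019), a call lost without DRF ZT4 replicate 1 or NRF ZT16 replicate 2. The list had 3 of 16 called higher and 2 lower, with 0 higher without NRF ZT16 replicate 2 and 1 higher and 1 lower without DRF ZT4 replicate 1, 2 or 3, 1 lower without NRF ZT16 replicate 3, and 7 members at an unadjusted p under 0.05 in limma. The glucose and fructose transporters Slc2a2 (105 ± 6.47 against 64.4 ± 11.5 TPM; 0.72, SE 0.17, adjusted p = 0.0021) and Slc2a5 (148 ± 13.2 against 89.9 ± 9.78 TPM; 0.72, SE 0.14, adjusted p = 0.00027) were higher in DRF ZT4. In ammonia handling, Glul, glutamine synthetase, was at 887, 968, 753 and 738 TPM against 2096, 1608, 1623 and 1632 TPM (-1.06, SE 0.14, adjusted p = 1.4e-06). The glutamine carrier Slc38a3 went the other way (0.64, SE 0.19, adjusted p = 0.017), a call lost without DRF ZT4 replicate 3 or NRF ZT16 replicate 2 or 3 (adjusted p = 0.051 to 0.105). S100g, the calbindin-D9k of calcium transport, was at 5605 ± 1249 against 3455 ± 1145 TPM (0.73, SE 0.18, adjusted p = 0.0041), with overlapping values. Its call was lost with the 8 libraries alone (limma, adjusted p = 0.141). Of the lists for water and urea, phosphate and calcium, acid-base, and glucose and amino acid transport, 1 of 14, 4 of 20, 3 of 12 and 2 of 13 members were called, against 17.2% of all genes.

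The counts that follow stand beside 9.61% of all genes called higher and 7.64% lower. In NAD synthesis 5 of 11 members were called higher and 1 lower. The lower one was Nampt, the rate-limiting salvage enzyme and a clock target, at 164, 143, 141 and 153 TPM against 217, 236, 217 and 226 TPM (-0.57, SE 0.09, adjusted p = 1.6e-05), and the higher ones were Acmsd (0.72), Nmnat3 (0.49), Naprt (0.46), Haao (0.35) and Qprt (0.32). Leaving out DRF ZT4 replicate 1, 2 or 3 or NRF ZT16 replicate 2 left 2 of these 5 called, and NRF ZT16 replicate 3 left 3. Among glucocorticoid targets 5 of 14 were lower and Mt2 alone was higher. In the antioxidant list 4 of 12 were higher (2 without DRF ZT4 replicate 3) and 1 lower, Hmox1, heme oxygenase, at 73.9, 132, 63 and 105 TPM against 86.9, 188, 294 and 417 TPM (-1.23, SE 0.34, adjusted p = 0.0093). The Hmox1 call was lost without NRF ZT16 replicate 4 and with the 8 libraries alone (limma, adjusted p = 0.0715 and 0.1515). G6pc, the last enzyme of gluconeogenesis, was the called member of 6 (877 ± 56.3 against 1409 ± 166 TPM; -0.68, SE 0.21, adjusted p = 0.018, lost without DRF ZT4 or NRF ZT16 replicate 3), while Pck1 was at 6696 ± 854 and 7160 ± 1267 TPM (-0.09, 95% interval -0.51 to 0.34). Fatty acid oxidation genes had 7 of 24 called lower, from Ehhadh (-0.57) to Hadhb (-0.23), and 1, Cyp4a14, higher. Of 14 amino acid response genes, Ddit3 (-0.55) and Sesn2 (-0.37) were called lower, and of 15 cell cycle genes, Wee1 and Ccnd1 (-0.59) were. These shares lie near the 17.2% of all genes called in either direction. The call was lost for Sesn2 with other scaling, voom and 5 of the 8 single-library omissions (up to adjusted p = 0.127), and for Ccnd1 without DRF ZT4 or NRF ZT16 replicate 3 (adjusted p = 0.0532 and 0.0957). Without NRF ZT16 replicate 1, 4 amino acid response genes were called lower.

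**Figure D4:**
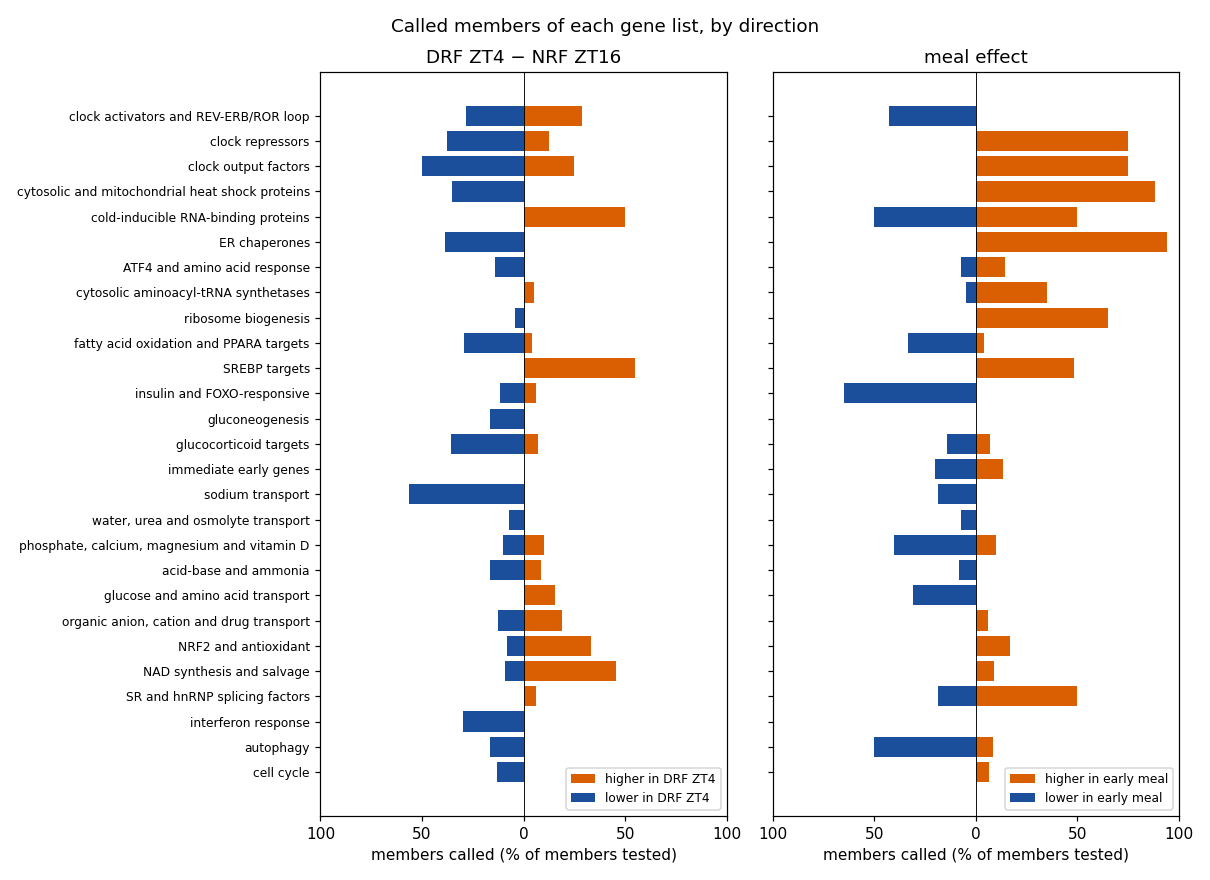
Share of the tested members of each of 27 gene lists called in the comparison of DRF ZT4 with NRF ZT16 (left) and in the meal effect (right), in percent, with higher to the right of 0 and lower to the left. SREBP targets extend to 54.8% higher and sodium transport to 56.2% lower on the left, and the heat shock and ER chaperone lists to 88.2% and 94.4% higher on the right.

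The meal effect was called for 3110 genes (23%), 1459 (10.8%) higher and 1651 (12.2%) lower in the early meal. A stricter set of meal-shared genes differed between meal and fast in the same direction at both ZT and had a 95% interval of the DRF ZT4 minus NRF ZT16 difference inside 1.5-fold. It held 421 genes (3.11%), 261 higher and 160 lower in the meal, of 496 that met the meal criterion alone. Of all tested genes, 81.6% had that interval inside 1.5-fold. This interval bounds the difference and does not show that the levels were equal. The set fell to 269, 245 and 265 genes without NRF ZT16 replicate 4, DRF ZT16 replicate 2 and DRF ZT16 replicate 3.

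Among the highest-ranking shared genes that rose with the meal, Alas1 (chromosome 9, 106233455 to 106248654), the rate-limiting enzyme of heme synthesis, was at 144, 128, 124 and 115 TPM in DRF ZT4 and 158, 129, 139 and 119 TPM in NRF ZT16. The groups interleaved (-0.09, 95% interval -0.45 to 0.27), and the early fasts were at 53 ± 8.88 and 82.1 ± 3.87 TPM (meal effect 0.99, SE 0.13, adjusted p = 5.8e-08). Angptl8, an insulin-induced inhibitor of lipoprotein lipase, was at 28.4, 30.3, 29.5 and 28.1 TPM in DRF ZT4 and 62.1, 24.3, 17.6 and 25.7 TPM in NRF ZT16. Its highest value was in the adipose-rich replicate 1, and the early fasts were at 15.5 ± 5.77 and 11.5 ± 1.12 TPM (meal effect 1.09, SE 0.17, adjusted p = 4.7e-06). Coq10b, of coenzyme Q handling (meal effect 0.95), Srm, spermidine synthase (0.71), Serpinh1, a collagen chaperone (0.69), Kpna2, a nuclear import adaptor (0.69), and Srebf1 had adjusted p between 1.6e-12 and 1.4e-07. The early meals did not overlap for Coq10b (-0.23, 95% interval -0.45 to -0.003, not called). A light effect was called for Alas1 (-0.36), Coq10b (-0.60), Srm (-0.30), Serpinh1 (-0.26) and Kpna2 (-0.24), and not for Angptl8 (0.18) or Srebf1 (0.12).

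Among the highest-ranking shared genes that fell in the meal, Txnip (chromosome 3, 96557957 to 96561883), an inhibitor of glucose uptake, was at 377, 348, 349 and 439 TPM in DRF ZT4 and 302, 341, 316 and 381 TPM in NRF ZT16, against 731 ± 149 and 715 ± 147 TPM in the early fasts (meal effect -1.0, SE 0.14, adjusted p = 4.1e-07). Slc5a12, a sodium-coupled lactate transporter, was at 273 ± 40.4 and 298 ± 26.8 TPM in the meals and 525 ± 138 and 576 ± 42.1 TPM in the fasts (-0.93, SE 0.15, adjusted p = 7.8e-06). Coq8a (-0.88), Tcp11l2 (-0.88) and Lgr4 (-0.81), a receptor for R-spondins, completed the 5. Depp1 and Angptl4, targets of FOXO and PPARA, had the largest meal effects of their lists (-2.52, SE 0.35, adjusted p = 3e-07; and -2.17, SE 0.30, adjusted p = 3e-07). Neither was in the shared set. The early-meal difference of Depp1 (0.05) had too wide an interval. That of Angptl4 (-0.74) was itself beyond 1.5-fold, though not called. Of 17 insulin- and FOXO-responsive genes, 11 were lower in the meal (12.2% of all genes were) and 0 higher. Between the early meals 1 was called higher and 2 lower, against 17.2% of all genes, with 1 and 6 without DRF ZT4 replicate 4 and 2 and 5 without NRF ZT16 replicate 1. Gabarapl1, an autophagy gene, was at 904 ± 40.3 and 1044 ± 53.7 TPM in the meals and 1732 ± 114 and 1551 ± 208 TPM in the fasts (-0.75, SE 0.06, adjusted p = 3.2e-12), and 6 of 12 autophagy genes were lower in the meal (12.2% of all genes).

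Most listed chaperones rose with the meal, and a minority were called lower in DRF ZT4 than in NRF ZT16, beside 10.8% of all genes higher in the meal and 7.64% lower in DRF ZT4. Of 17 cytosolic and mitochondrial heat shock genes, 15 were higher in the meal and 0 lower, and 6 were lower in DRF ZT4 (3 without DRF ZT4 replicate 3 or NRF ZT16 replicate 2). Of 18 ER chaperones, 17 were higher in the meal and 0 lower, and 7 were lower in DRF ZT4, a number that ran from 2 to 10 over single-library omissions, with 2 without DRF ZT4 replicate 3 and 4 without DRF ZT4 replicate 2 or NRF ZT16 replicate 2, 3 or 4. Dnaja1 (chromosome 4, 40722150 to 40737149), a co-chaperone of HSP70, was at 219, 197, 164 and 191 TPM in DRF ZT4 and 236, 263, 244 and 258 TPM in NRF ZT16 (-0.38, SE 0.10, adjusted p = 0.0052). The early fasts were at 77.1 ± 6.53 TPM at ZT4 and 155 ± 13 TPM at ZT16 (meal effect 1.0, SE 0.07, adjusted p = 1.6e-14). Hspa1b varied within groups (50.5 to 215 TPM in DRF ZT4, 133 to 361 TPM in NRF ZT16), was not called between the meals (-1.01, SE 0.54, adjusted p = 0.2) and had a meal effect of 1.60 (SE 0.38, adjusted p = 0.0012). Hspa1a and Hspa1b have near-identical coding sequences, so that their split is uncertain. Herpud1, of ER-associated degradation, had the largest ER difference (414 ± 68 against 666 ± 40.7 TPM; -0.70, SE 0.13, adjusted p = 0.00019). Manf, a secreted ER stress protein, was at 150 ± 43.5 and 178 ± 14.2 TPM in the meals and 41.7 ± 5.93 and 108 ± 10 TPM in the fasts (meal effect called, adjusted p = 3.4e-11). Cirbp, a cold-induced RNA-binding protein, moved the other way: 24.4 ± 2.23 and 17.1 ± 0.931 TPM in the meals, 64.2 ± 4.39 TPM in NRF ZT4 and 21.5 ± 2.38 TPM in DRF ZT16 (meal effect -0.84, SE 0.10, adjusted p = 5.4e-09). Rbm3, of the same class, was higher in the meal (0.41, SE 0.07, adjusted p = 2e-05).

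Of 23 ribosome biogenesis genes 15 were higher in the meal (10.8% of all genes were), and 1 was called between DRF ZT4 and NRF ZT16 (17.2% of all genes), with 8 at an unadjusted p under 0.05. Without DRF ZT4 replicate 4 it was 4 called lower, and without NRF ZT16 replicate 1 it was 5 lower and 1 higher. Of 20 cytosolic aminoacyl-tRNA synthetases 7 were higher (4 without DRF ZT4 replicate 4) and 1 lower in the meal, and 1, Rars (0.19), was called between the early meals, where 2 were called lower and 1 higher without DRF ZT4 replicate 4, and 3 lower and 1 higher without NRF ZT16 replicate 1. The Rars call was lost with the 8 libraries alone (limma, adjusted p = 0.128). Splicing factors had 8 of 16 higher and 3 lower in the meal and 1 called between the meals. Immediate early genes had 0 of 15 called between DRF ZT4 and NRF ZT16 by limma, with a median of -0.04 and 2 members at an unadjusted p under 0.05.

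**Figure D5:**
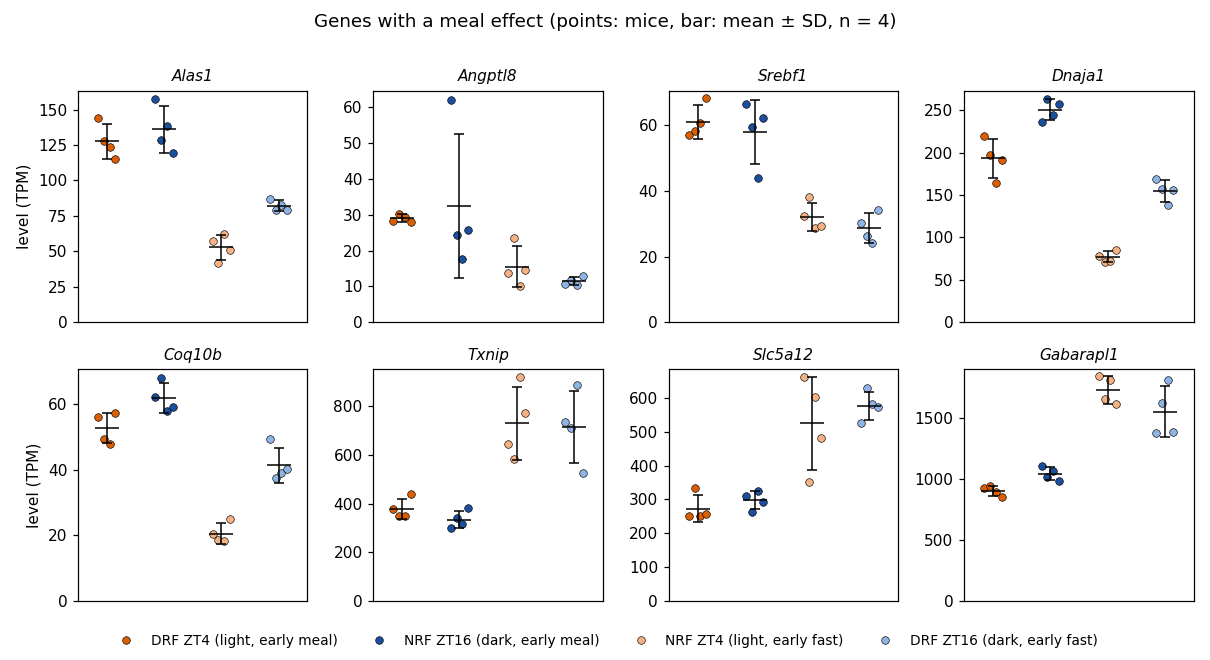
Levels in TPM of 8 genes with a meal effect in the 4 groups, 1 point per mouse with the mean and SD of 4. Alas1, Angptl8, Srebf1, Dnaja1 and Coq10b are higher and Txnip, Slc5a12 and Gabarapl1 lower in DRF ZT4 and NRF ZT16 than in the early fasts.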

How the data were processed

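Kidney RNA from 56 mice was sequenced, with 4 mice in each of 14 groups set by regimen and zeitgeber time. All columns were mapped to a sample or a group (0 left unmapped). The name of 1 column, outside the comparison, matched no sample, and that column was mapped to its group alone. The submitters' processing notes named HISAT2, Bowtie2, RSEM, mm10 and GRCm38.p6, with versions not given in the sources used here. The deposited table is called TPM, but its values behaved as a score: log2(CPM + 1) divided by gene length and rescaled per library, a transform that was inferred from the values and is not stated by the authors. With GENCODE M21 exon lengths, 99% of judged values came out as whole reads within 0.05 reads, and linear TPM was rebuilt for 16930 of 17027 genes. The other 97 (94 with no length and 3 too abundant to judge) were left out. The 8 libraries held 23.3 to 25.4 M recovered reads.

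Genes with a mean of at least 1 TPM over all libraries were tested on log2(TPM + 1) with limma 3.58.1 (intensity trend, R 4.3.3) in 1 fit of 14 groups, with Benjamini-Hochberg adjustment over all tested genes. Fold changes of low genes are understated on this scale. The fit was tested on simulated data with independent noise for each gene. These held no tissue differences between libraries, so they do not show how such differences act on the calls. The light, meal and pair-difference contrasts came from the same fit. The p-values set each contrast against the spread between mice within groups, pooled over all 14 groups. Genes near identical to others were taken as uncertain, and strand use in counting is not given in the sources used here.

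Named genes had a mean of at least 10 TPM: the 12 largest called, non-overlapping differences in each direction, the 8 higher and 5 lower meal-shared genes with the largest meal effects, all clock genes at any level, and in each other list the 2 members with the largest difference and the 1 with the largest meal effect. Members of lists named outside this rule (Idi1, Nsdhl, Fasn, Acaca, Acly and those given with a difference alone) were chosen after their values were seen. The comparison, gene lists and markers were chosen with earlier results of these data known. Replicate numbers were not used as pairs in the main fit: same-numbered deviations correlated at 0.227, -0.741, -0.006 and -0.475. Whether equal numbers shared a batch cannot be told from these correlations. Alternatives covered scaling, pseudocount, filters, libraries fitted, trend, replicate block, minimum difference, single and paired omissions of libraries, and voom. Promoters came from RefSeq (GRCm38.p6). Some genes are not reported here.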

Additional observations from a re-analysis of the deposited data

Results flagged for a closer look

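Among 212 sets of 4 values checked (106 named genes in DRF ZT4 and in NRF ZT16), 16 had 1 mouse far from the other 3, and chance gives such a value in about 1 of 20 sets. DRF ZT4 held 9 of them, 5 in replicate 4, and NRF ZT16 held 7, 4 in replicate 1. In DRF ZT4 replicate 1 this was Mup22 (0.437 TPM, others at 0). In DRF ZT4 replicate 2 this was Slc5a12 (334 TPM, others 250 to 256 TPM). In DRF ZT4 replicate 3 these were G6pc (792 TPM, others 902 to 907 TPM) and Slc38a3 (168 TPM, others 110 to 117 TPM). In DRF ZT4 replicate 4 these were Nop56 (34.5 TPM, others 29.9 to 30.1 TPM), Depp1 (25.4 TPM, others 4.06 to 4.92 TPM), Sgk1 (247 TPM, others 103 to 115 TPM), Slc2a5 (168 TPM, others 141 to 142 TPM) and Ulk2 (39.2 TPM, others 29.8 to 31 TPM). In NRF ZT16 replicate 1 these were Tgtp1 (144 TPM, others 29.1 to 43.9 TPM), Npas2 (0.83 TPM, others 1.7 to 1.76 TPM), Iars (48.9 TPM, others 61.7 to 64.1 TPM) and Glul (2096 TPM, others 1608 to 1632 TPM). In NRF ZT16 replicate 2 these were G6pc (1160 TPM, others 1485 to 1499 TPM) and Slc2a5 (75.4 TPM, others 93.1 to 95.9 TPM). In NRF ZT16 replicate 4 this was Bhlhe40 (190 TPM, others 151 to 158 TPM).

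For 32 of these 106 named genes the light-dark difference in the early meal differed from that in the early fast (limma, adjusted p under 0.05), against 16% of all tested genes. Many of them were named for a large early-meal difference, which is a part of this contrast. A larger share than that of all genes therefore follows from the naming. The values below are that difference of differences on the log2 scale, which is also the difference of DRF from NRF summed over both times. Sterol and lipid genes and Gm38481 were positive, with Apoc3 2.69, Cyp4a14 1.91, Msmo1 1.62, Fdps 1.11 and Gm38481 1.97. Interferon-inducible genes were negative, with Tgtp1 -3.09, Irf7 -3.08, Gbp6 -2.89, Iigp1 -2.73, Ifi27l2a -2.45 and Oasl2 -1.30. Clock genes were positive, with Per2 2.15, Cry1 1.20 and Ciart 1.13. Chaperone and growth genes with a meal effect were positive, with Manf 1.06, Coq10b 0.75, Dnaja1 0.62, Kpna2 0.51, Serpinh1 0.41 and Srm 0.40. Genes lower in the meal were negative, with Cirbp -1.05, Lgr4 -0.67, Coq8a -0.54, Tcp11l2 -0.53 and Gabarapl1 -0.37. Genes of transport, glucose, glutamine and heme metabolism gave Sgk1 1.52, Hmox1 1.40, G6pc 1.14, Glul 0.69 and Slc6a19 -0.98. Splicing factors gave Tra2a 0.66 and Srsf3 0.31.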

How the results depend on the processing

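The count of genes differing between DRF ZT4 and NRF ZT16 (2335) lay between 2202 and 2662 under other scalings, pseudocounts, filters, no trend, the replicate block and voom. It was 624 when only the groups named entered the fit and 322 with a minimum of 1.5-fold. The other counts that moved in the same ways were 925 and 627 for the difference between the pairs, 2986 and 831 for NRF ZT4 against DRF ZT16, 166 for meal-shared genes with the groups named alone, and 332 and 188 for the light and meal effects at 1.5-fold. The narrower fit has fewer libraries and degrees of freedom, and a minimum fold removes small differences by construction. Leaving out 1 library gave 1482 to 3268 calls for DRF ZT4 against NRF ZT16, 4042 to 4908 for light, 2738 to 3432 for meal, 1514 to 3158 for the difference between the pairs, 3869 to 4717 for the early fasts and 245 to 454 meal-shared genes. Why the counts moved so far with single libraries was not tested. With the replicate number as a block the calls were 2334, and among 108 named genes Acmsd lost its call (adjusted p = 0.0507) and Per1 gained one (adjusted p = 0.0342) in limma. Same-numbered mice did not consistently deviate together, and the main fit did not use the numbers as pairs. Without the urothelial-rich pair of libraries 1729 genes were called, without the adipose-rich pair 1572. With voom 71.6% of calls were higher, against 55.7%. The sign of the difference turned under at least 1 setting for 13 of the 108 named genes, 0 of which was called in either fit. Differences under about 1.5-fold are limited by 4 mice a group.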

Other observations

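Markers of other tissues differed between mice of the same group. Podocyte markers summed to 349 to 460 TPM in DRF ZT4 and 294 to 359 TPM in NRF ZT16. Liver markers summed to 214 to 306 TPM and 195 to 245 TPM, and red blood cell markers to 620 to 1527 TPM and 808 to 2116 TPM. Adrenal markers stayed between 4.04 and 6.88 TPM in both groups. The collecting duct water channel Aqp2 was at 1398 TPM in DRF ZT4 replicate 4 and 995 TPM in NRF ZT16 replicate 2, and at 442 to 460 TPM in the other 6 mice. The part of these differences in the results was not tested.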
